A study of Mus musculus with 2 samples.

Results

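The 4 Hox clusters of the mouse were examined for peaks of DLX2, a homeodomain protein that patterns the developing face. Peaks were assigned to these regions by position alone: a peak belonged to them if it lay inside, or within 100 kb of, one of 38 Hox genes in the RefSeq annotation of GRCm38.p6. These are 10 genes of HoxA, 10 of HoxB, 9 of HoxC and 9 of HoxD, and the ends of each cluster were set by the outermost of them. Of 28061 peaks in replicate 1, 17 met this rule, and of 62093 peaks in replicate 2, 33 did. The replicates had 10921 shared regions, meaning sequence under a peak in both (minimum overlap 1 bp), and 5 of them lay in the Hox windows.

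The peaks came from CUT&Tag with a DLX2 antibody on cells of the maxillary process, from which most of the upper jaw grows. The embryos were wildtype C57BL/6 mice at E12.5, and the 2 libraries form a single group. No control library, second genotype or second tissue was used here, so no test between groups was possible, and each replicate was set against its own autosomal mean. Whether the libraries came from separate embryos or from pools is not given in the sources used here, so the spread between them may be technical. The peak lists give no read totals. The lowest local background, a measure of depth recovered from the fold and p of the peaks, was 0.387 fragments in replicate 1 and 1.101 in replicate 2, so replicate 2 was the deeper library.

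Hox genes encode homeodomain transcription factors that give cells along the head-to-tail axis their position. The genes of a cluster are numbered in the order of their expression, from low numbers at the anterior end to group 13 at the posterior end. Neural crest cells that form the upper jaw are known for lacking Hox expression, and the silent clusters are usually covered by Polycomb marks. Neither expression nor chromatin marks were measured in these libraries, so the Hox-negative state of the tissue could not be checked here.

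In the promoter windows of Hox genes, a single DLX2 peak was found, at the start of *Hoxb1*, which acts in the hindbrain. The windows run from 250 bases before to 50 bases after a RefSeq start site, and 24 windows were available for 22 of the 38 genes. The *Hoxb1* window lies at chr11:96365508-96365807 on the plus strand of GRCm38. It is printed 5′ to 3′ because it is the only one overlapped, with the 86 bases covered by the replicate 1 peak in capitals.
Hoxb1: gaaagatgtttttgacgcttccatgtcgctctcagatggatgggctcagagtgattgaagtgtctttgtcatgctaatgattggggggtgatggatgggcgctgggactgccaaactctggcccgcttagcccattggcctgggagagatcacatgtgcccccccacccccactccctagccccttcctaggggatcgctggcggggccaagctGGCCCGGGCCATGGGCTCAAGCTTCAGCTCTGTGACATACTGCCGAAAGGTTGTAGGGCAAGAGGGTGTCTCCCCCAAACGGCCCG
The summit of this peak lay 20 bases before the start site. It had a fold enrichment of 4.32 and rested on 5 fragments. Replicate 2 had no peak in the window, and its nearest peak began 345 bp after the end of the replicate 1 peak, inside the gene, with a fold of 4.12 and 8 fragments. Over all autosomes, 0.812% of 31396 promoter windows were overlapped in replicate 1, 2.74% in replicate 2 and 0.169% by a shared region. The counts of 1 and 0 among 24 Hox windows are too small to be read against these shares.

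The letters of the Hox promoters were compared with those of all promoter windows. TAATTA, a core sequence bound by many homeodomain proteins including the DLX family, occurred in 2 of the 24 windows (8.33%), against 5.27% of all windows. Both belonged to *Hoxd11*, a posterior gene of the limb and trunk, whose windows lie on the plus strand at chr2:74679308-74679607 and chr2:74682073-74682372. The sites are printed with 12 bases on each side and TAATTA in capitals, because this is the homeodomain core among the motifs searched.
Hoxd11 first window: aaagagcataaaTAATTAaagtttggcagg
Hoxd11 second window: cgtcacgtgacaTAATTAccaccagaatca
The sites begin 81 and 87 bases before the respective start sites. The nearest peak to *Hoxd11* was 3.38 kb away in replicate 1 and 3.66 kb away in replicate 2, so neither site lay under a peak. The sequence TGATNNAT, of the kind bound by HOX proteins together with their cofactors, occurred in 4 windows (16.7%, against 8.80% of all), among them that of *Hoxb1*, where it read tgatggat 162 bases before the start and outside the peak. CACGTG, the E-box recognized by MNT and other MYC-network proteins, occurred in 5 windows (20.8%, against 7.14%), all in HoxD. TGTGGT, the core bound by RUNX proteins, occurred in 1 window, that of *Hoxd10* (4.17%, against 16.7%). Each motif was searched on both strands. These counts, of 1 to 5 among 24 windows, are too small to be read as an excess or a deficit. Windows of the same gene or cluster are also not independent, and no test was made. The Hox windows had a median GC content of 57.7% and 14.5 CG dinucleotides, against 53.0% and 7 for all windows.

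Peak density in the Hox windows lay near the autosomal mean in both replicates. The windows span 1285 kb in all. Replicate 1 had 17 peaks there, 13.2 peaks per Mb, against 11.6 per Mb over the autosomes, a ratio of 1.14 (exact 95% Poisson interval 0.667 to 1.83). Replicate 2 had 33 peaks, 25.7 per Mb, against 25.4 per Mb, a ratio of 1.01 (interval 0.696 to 1.42). The mean of the ratios was 1.08 ± 0.0942 (SD, n = 2). For the 5 shared regions the ratio was 0.865 (interval 0.281 to 2.02), where 5.78 would lie at the autosomal mean. All of these intervals cover counting error only, and all include a ratio of 1.

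**Figure D1:**
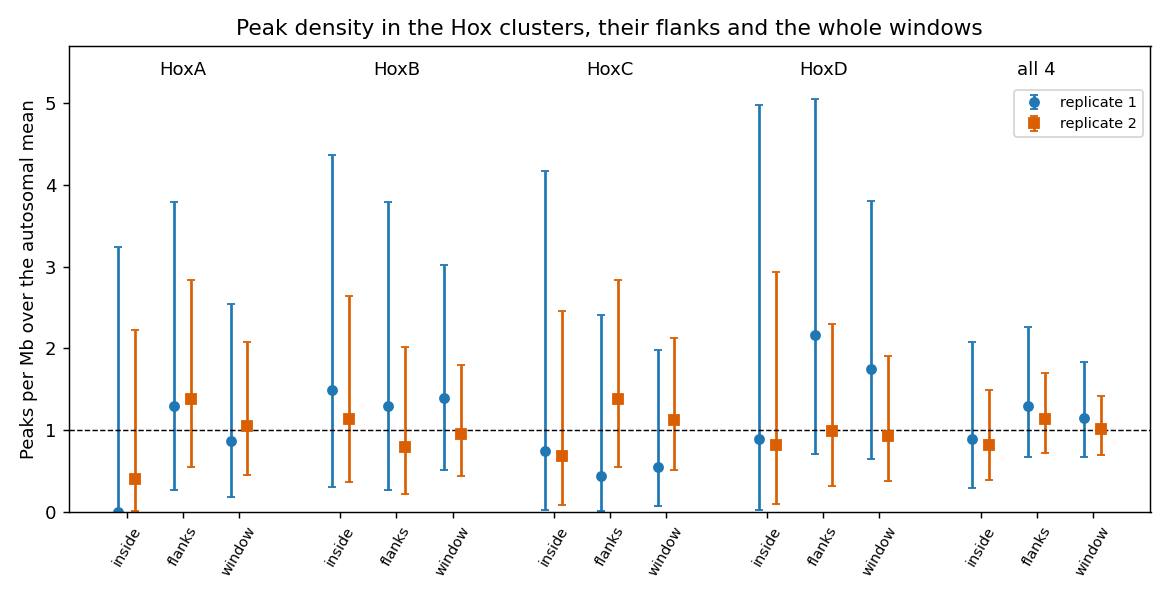
Peaks per Mb over the autosomal mean of the same replicate (vertical axis) inside each cluster, in its flanks and in the whole window, for each replicate. Bars are exact 95% Poisson intervals. The dashed line marks a ratio of 1, and every interval includes it, while the point for replicate 1 inside HoxA lies at 0.

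The clusters were then described in turn. HoxA, whose genes pattern the hindbrain, limb and reproductive tract, had 3 peaks in replicate 1 (ratio 0.869, interval 0.179 to 2.54) and 8 in replicate 2 (ratio 1.06, interval 0.456 to 2.08), and no shared region. HoxB had 6 peaks in replicate 1 (ratio 1.39, interval 0.509 to 3.02) and 9 in replicate 2 (ratio 0.948, interval 0.433 to 1.799), with 3 shared regions. HoxC had 2 peaks in replicate 1 (ratio 0.548, interval 0.0664 to 1.98) and 9 in replicate 2 (ratio 1.12, interval 0.513 to 2.13), with none shared. HoxD had 6 peaks in replicate 1 (ratio 1.75, interval 0.641 to 3.80) and 7 in replicate 2 (ratio 0.928, interval 0.373 to 1.91), with 2 shared regions. The order of the clusters thus differed between replicates: HoxD stood highest and HoxC lowest in replicate 1, and HoxC stood highest and HoxD lowest in replicate 2. The intervals of all 4 windows overlapped in each replicate.

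Against all non-overlapping autosomal stretches of the same length, none of the windows stood at an extreme. Between 36.3% and 75.9% of stretches held fewer peaks than the Hox window of that length, over the 4 windows and 2 replicates. Of 8086 stretches as long as the HoxD window, 78.7% held at least 1 peak in replicate 1 and 90.7% in replicate 2, and the median stretch held 2 and 6 peaks. A shared region was found in 56.5% of stretches of that length, beside 2 of the 4 Hox windows.

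**Figure D2:**
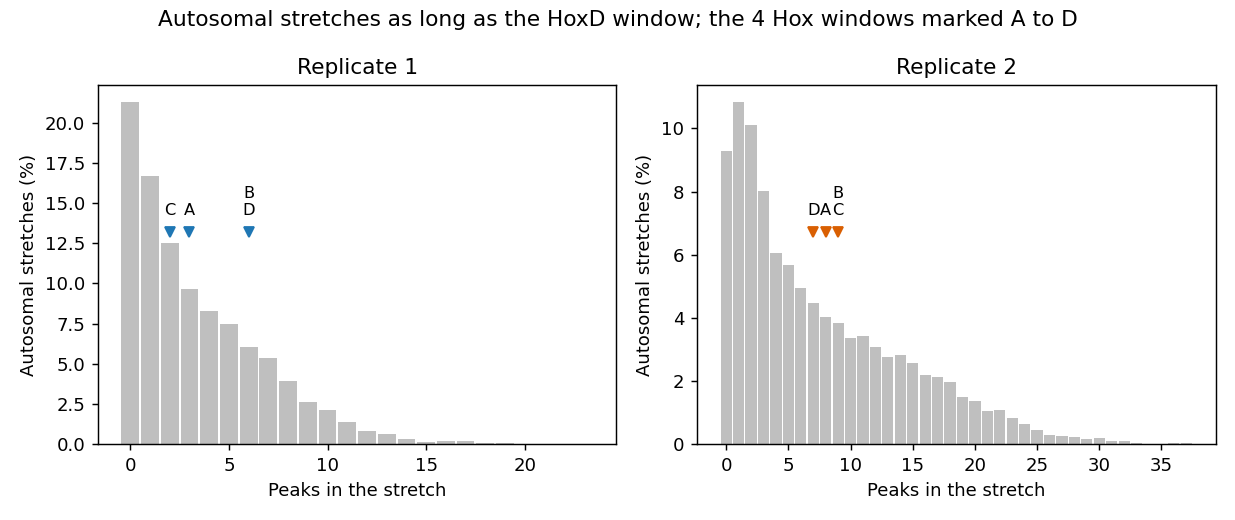
Share of autosomal stretches as long as the HoxD window (vertical axis, percent) that held each number of peaks (horizontal axis), with triangles at the counts of the 4 Hox windows. The HoxB window is longer than these stretches (374 kb against 297 kb). The Hox windows sit between 2 and 9 peaks, within the body of each distribution.

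Inside the clusters, from the first to the last listed Hox gene (485 kb in all), the pooled density was below that of the flanks in both replicates, but HoxB did not follow. Replicate 1 had 5 peaks inside (ratio to the autosomal mean 0.892, interval 0.290 to 2.08) and 12 in the flanks (ratio 1.30). Replicate 2 had 10 peaks inside (ratio 0.812, interval 0.389 to 1.49) and 23 in the flanks (ratio 1.13). The density inside over that in the flanks was 0.687 in replicate 1 and 0.717 in replicate 2, a mean of 0.702 ± 0.0211 (SD, n = 2), and the intervals of inside and flank overlapped in each replicate. In HoxB the density was higher inside than in the flanks in both replicates (ratios to the autosomal mean of 1.49 against 1.30 in replicate 1 and 1.13 against 0.787 in replicate 2), and in HoxC it was higher inside in replicate 1 (0.747 against 0.433) and lower in replicate 2 (0.680 against 1.38). HoxA and HoxD were lower inside in both. HoxA was the emptiest, with 0 peaks inside in replicate 1, which allows a ratio of up to 3.24, and 1 in replicate 2. The flank beside the anterior end of HoxD had 4 peaks in replicate 1 (ratio 3.46, interval 0.943 to 8.86) and 3 in replicate 2 (ratio 1.18), and it held 2 of the 5 shared regions.

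**Figure D3:**
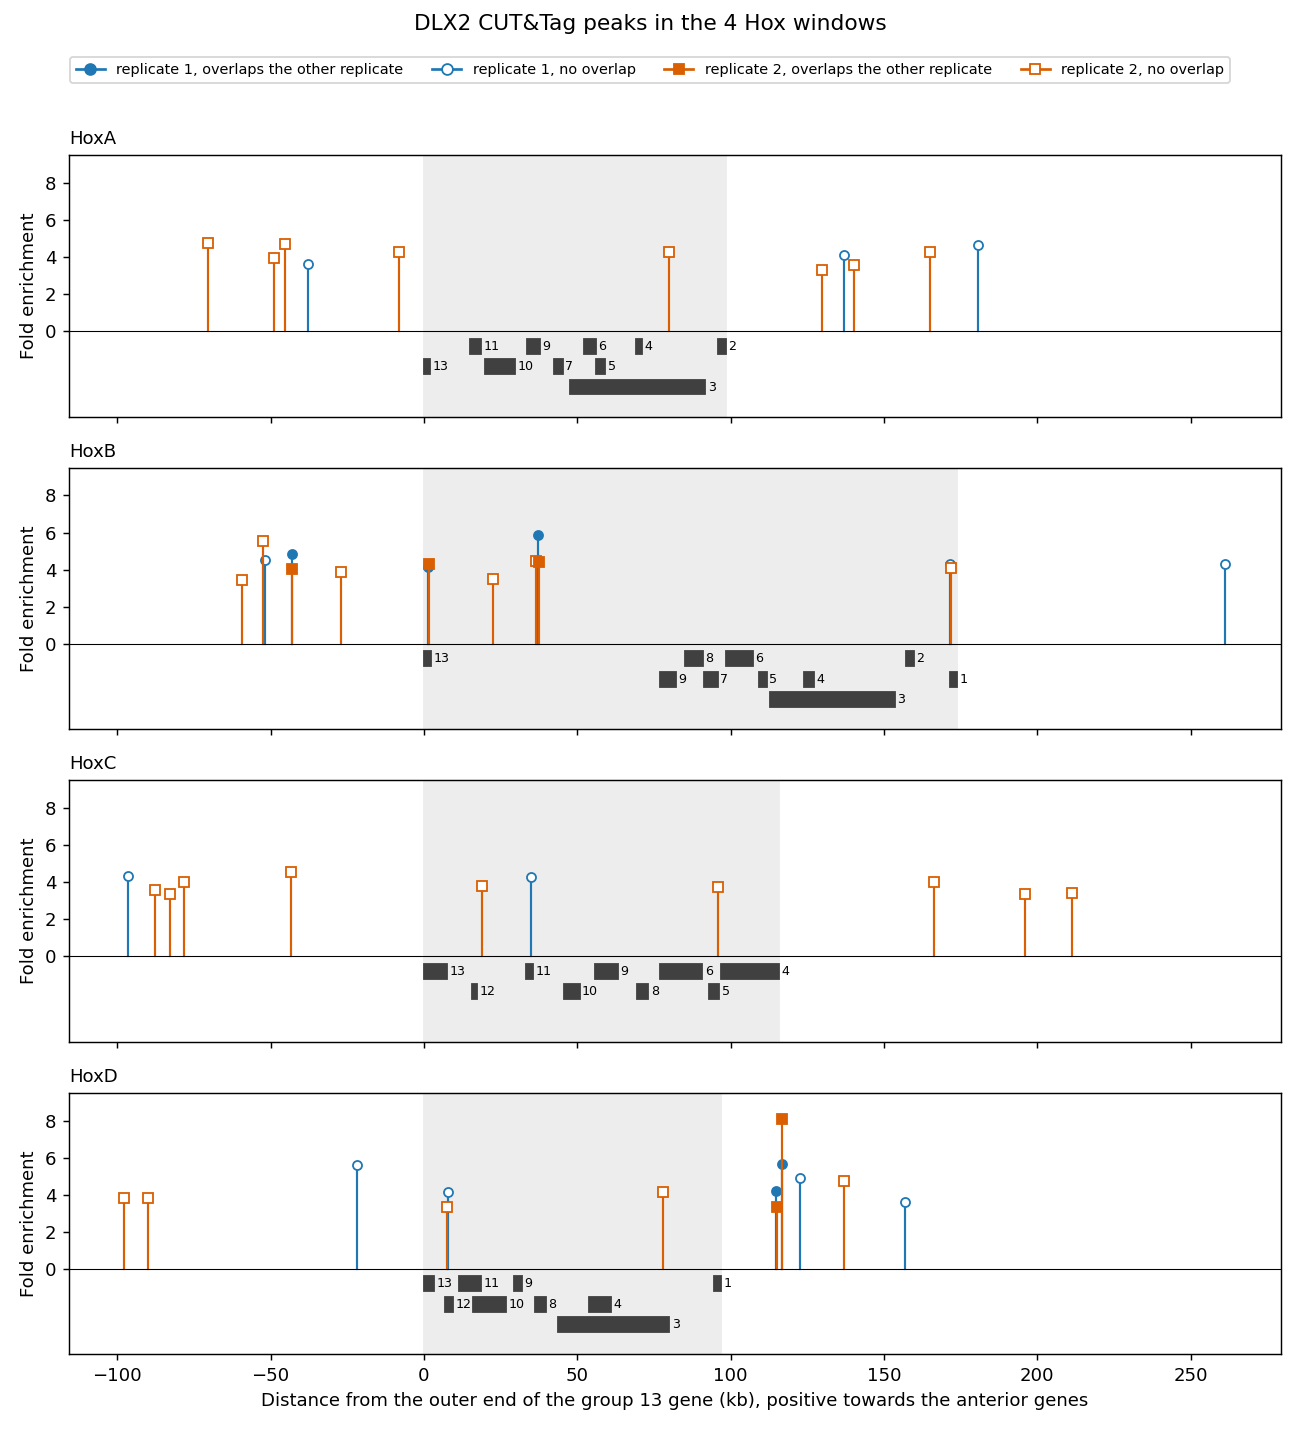
Peaks of each replicate in the 4 windows, placed by the distance of the summit from the outer end of the group 13 gene (horizontal axis, kb) and drawn to the height of their fold enrichment (vertical axis). Dark boxes are Hox genes with their numbers, the grey band spans the cluster, and filled markers are peaks that overlap a peak of the other replicate. The tallest peak stands beyond the anterior end of HoxD, and the interiors of HoxA and of HoxB between its genes 9 and 2 hold long empty stretches.

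Few Hox genes had a peak in the gene or within 2 kb of it. Replicate 1 had 4 of 38 such genes (10.5%), against 35.6% of 20556 autosomal protein-coding genes. Replicate 2 had 8 (21.1%), against 56.0%, and shared regions met 1 gene, *Hoxb13*, where 16.8% of coding genes were met. Hox genes are short, with a median length of 3.72 kb against 17.6 kb for coding genes, so the shares were also set against the 7278 coding genes of at most 10 kb. These held a peak in 12.4% of cases in replicate 1, 29.6% in replicate 2 and 4.04% for shared regions. Of the 32 Hox genes of at most 10 kb, 4 had a peak in replicate 1 and 5 (15.6%) in replicate 2. The share was thus near that of short genes in replicate 1 and below it in replicate 2. Neighbouring Hox genes share sequence, and their extents overlap in places, so the genes are not independent, and no test was made. *Hoxb1*, *Hoxb13* and *Hoxd12* had a peak in both replicates (7.89%), against 30.3% of coding genes and 7.41% of those of at most 10 kb. Taking either replicate, 9 Hox genes had a peak (23.7%) and 29 had none, against 61.3% of coding genes and 34.6% of the short ones with a peak. Within 10 kb of the gene, 7 Hox genes had a peak in replicate 1 (18.4%), against 47.4% of coding genes and 28.6% of those of at most 10 kb. In replicate 2, 14 had one (36.8%), against 70.1% and 52.1%, and the shared regions still met *Hoxb13* alone, against 22.8% and 10.7%.

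Among the anterior genes (groups 1 to 4), which act in the hindbrain and upper trunk, 4 of 11 had a peak in one or the other replicate. Of coding genes of at most 10 kb, 34.6% had one, and of all coding genes 61.3%. *Hoxb1* had a peak in each, described above. *Hoxa3*, which acts in the pharyngeal arches, had a replicate 2 peak with a fold of 4.28 and 8 fragments at chr6:52180925-52181118. The annotated extent of *Hoxa3* is 44.0 kb and takes in other HoxA genes, and the same peak lies in the lncRNA gene LOC115490409. *Hoxd3* had a replicate 2 peak with a fold of 4.16 and 8 fragments, again inside a long extent of 36.3 kb. *Hoxc4* lay 0.958 kb from a replicate 2 peak inside *Hoxc5*. The nearest replicate 1 peak was 45.1 kb from *Hoxa3*, 34.9 kb from *Hoxd3* and 61.9 kb from *Hoxc4*.

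The central genes (groups 5 to 8), which pattern the trunk, had 1 of 11 genes met, where 34.6% of coding genes of at most 10 kb had a peak in either replicate. The classes were not tested against each other, and 10 of the 11 central genes lie in peak-free stretches that they share with neighbours, so they are not separate observations. The peak was the replicate 2 peak in *Hoxc5*, with a fold of 3.72 and 7 fragments, and the microRNA gene *Mir615* lay 1.95 kb from it. The median distance from a central gene to the nearest peak was 57.8 kb in replicate 1 and 28.7 kb in replicate 2, against 38.5 and 12.2 kb for the anterior genes and 19.1 and 12.8 kb for the posterior genes.

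Among the posterior genes (groups 9 to 13), which pattern the tail end, limbs and genitalia, 4 of 16 had a peak in either replicate. The share was 34.6% of coding genes of at most 10 kb and 61.3% of all coding genes. *Hoxb13* was the only Hox gene with a shared region, at chr11:96195806-96195977 within the gene. The fold there was 4.16 in replicate 1, from 5 fragments, and 4.28 in replicate 2, from 8 fragments, and the summits were 58 bp apart. *Hoxd12* had a peak in each replicate, with folds of 4.13 and 3.33, but the peaks were 166 bp apart and did not overlap. *Hoxc11* had a replicate 1 peak with a fold of 4.31 and 5 fragments, and its nearest replicate 2 peak was 14.4 kb away. *Hoxc12* lay 1.37 kb from a replicate 2 peak with a fold of 3.81 and 7 fragments.

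The other peaks inside the clusters lay between *Hoxb13* and *Hoxb9*, a gap of the HoxB cluster that holds no listed Hox gene. Replicate 1 had 1 peak there and replicate 2 had 3. A shared region stood 35.0 kb past *Hoxb13*, at chr11:96231575-96231684, where the fold was 5.88 in replicate 1 and 4.44 in replicate 2. Replicate 2 had another peak 374 bp before the replicate 1 peak of that region (fold 4.49) and a further one between that site and *Hoxb13* (fold 3.50).

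The shared region with the highest fold in its weaker replicate lay outside the genes, 19.6 kb past *Hoxd1* at chr2:74784782-74784954. The fold was 5.63 in replicate 1, from 7 fragments, and 8.09 in replicate 2, from 16 fragments, and the summits were 8 bp apart. Its −log10 q was 3.89 and 9.93. In replicate 2 its peak had the highest fold of the 4 windows, whereas in replicate 1 the peak between *Hoxb13* and *Hoxb9* stood higher, at 5.88 from 8 fragments. Over the autosomes, 18.3% of replicate 1 peaks and 1.47% of replicate 2 peaks had a fold at least as high as those here. A weaker shared region stood 1546 bp closer to *Hoxd1*, at chr2:74783140-74783235, with folds of 4.20 and 3.33. No annotated gene held either region, and *Hoxd1* was the nearest.

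The remaining shared region lay on the other side of HoxB, at chr11:96151252-96151361 in *Ttll6*, which encodes a tubulin glutamylase, 43.0 kb from *Hoxb13*. Its folds were 4.85 and 4.02. No other protein-coding gene apart from *Hoxb13* held or lay within 2 kb of a shared region of the windows. Over all 10812 autosomal shared regions, the lower of the folds of each region had a median of 4.51 (quartiles 3.92 and 5.36), and 4 of the 5 Hox regions were below that median.

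The peaks in each window were otherwise weak, as were most peaks of these lists. The strongest in HoxA had a fold of 4.67 in replicate 1, 82.0 kb from *Hoxa2*, and 4.76 in replicate 2, beyond *Hoxa13*. In HoxC they were 4.33 and 4.55, both beyond *Hoxc13*. In HoxB the strongest in replicate 1 was that of the shared region between *Hoxb13* and *Hoxb9*, and in replicate 2 it was a peak in *Ttll6* with a fold of 5.55 and 12 fragments. Over the 4 windows the median fold was 4.32 in replicate 1 and 3.99 in replicate 2, against 4.33 and 4.12 over the autosomes, and the median number of fragments at the summit was 5 and 8, against 6 and 9.

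Few peaks of high fold were found in the Hox windows. With a fold of at least 5, replicate 1 had 3 peaks where 4.91 would lie at the autosomal mean (ratio 0.612, interval 0.126 to 1.79). Replicate 2 had 2 where 6.35 would lie (ratio 0.315, interval 0.0382 to 1.14). With a −log10 q of at least 5, replicate 1 had 0, which allows a ratio of up to 2.43, and replicate 2 had 2 (ratio 0.554, interval 0.0671 to 2.001). Both ratios are below 1 under each filter, but every interval includes 1.

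The peaks of the replicates lay near each other in the Hox windows in shares close to those of the autosomes. Of 17 replicate 1 peaks, 5 overlapped a replicate 2 peak and 8 overlapped or lay within 1 kb of one, against 38.8% and 46.2% of autosomal peaks. Of 33 replicate 2 peaks, 5 overlapped and 9 overlapped or lay within 1 kb, against 17.3% and 21.6%. All of the 8 replicate 1 peaks with a near partner were in HoxB and HoxD, 5 and 3 respectively. HoxA and HoxC held none.

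Most of the flanking peaks did not overlap a peak of the other replicate. The flanks held 12 and 23 peaks, and only 3 sites there lay under a peak of each list. Non-overlapping peaks were also the majority over the autosomes, where 38.8% of replicate 1 peaks and 17.3% of replicate 2 peaks had an overlap. The lack of overlap was thus not particular to the flanks. The flanks beside the group 13 genes held 5 peaks in replicate 1 (ratio 1.08) and 14 in replicate 2 (ratio 1.38, interval 0.753 to 2.31), and those beside the anterior ends held 7 (ratio 1.51, interval 0.609 to 3.12) and 9 (ratio 0.886). Replicate 2 had 4 peaks beside the group 13 gene of HoxA, of HoxB and of HoxC, and 2 beside that of HoxD, where they lay in *Lnpk*, a gene of the endoplasmic reticulum. In the HoxA flank, replicate 2 peaks lay 1.28 kb from *Hottip*, a lncRNA gene beside *Hoxa13*, and in *Evx1os*, the antisense gene of the homeobox gene *Evx1*. *Evx2*, the homeobox gene beside *Hoxd13*, was 6.55 kb from a replicate 1 peak with a fold of 5.61 and 7 fragments, and 14.2 kb from the nearest replicate 2 peak.

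The distance from each gene to its nearest peak gave a further view. The median over the 38 Hox genes was 38.2 kb in replicate 1 and 16.8 kb in replicate 2. Coding genes of at most 10 kb had medians of 27.0 and 8.94 kb. To the nearest shared region the medians were 152 kb for Hox genes and 85.9 kb for these short genes. *Hoxa6* was the farthest from a replicate 1 peak, at 80.9 kb, and *Hoxb6* the farthest from a replicate 2 peak, at 61.1 kb. By cluster, the median distance in replicate 1 was 61.8 kb in HoxA, 41.9 kb in HoxB, 27.2 kb in HoxC and 17.98 kb in HoxD, and in replicate 2 it was 21.9, 42.1, 11.2 and 8.37 kb in the same order. HoxD genes were thus nearest to a peak in both replicates, though neighbouring genes share the nearest peak.

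Long stretches without a peak of either replicate ran through all of the clusters. The longest was 134 kb in HoxB and held 8 Hox genes whole, from *Hoxb9* to *Hoxb2*. In HoxA, 87.8 kb held 8 genes, from *Hoxa4* to *Hoxa13*. In HoxD, 69.9 kb held 5 genes, from *Hoxd11* to *Hoxd4*, and in HoxC, 60.7 kb held 4 genes, from *Hoxc10* to *Hoxc6*. In all, 28 of 38 Hox genes lay whole in a stretch of at least 50 kb (73.7%), against 28.7% of coding genes and 42.2% of coding genes of at most 10 kb. Of the 32 Hox genes of at most 10 kb, 24 did so. Such stretches were not rare, since 34.3% of autosomal sequence lay in stretches as long as 134 kb or longer. Because the Hox genes of one stretch share it, these shares describe a small number of stretches and carry no test.

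**Figure D4:**
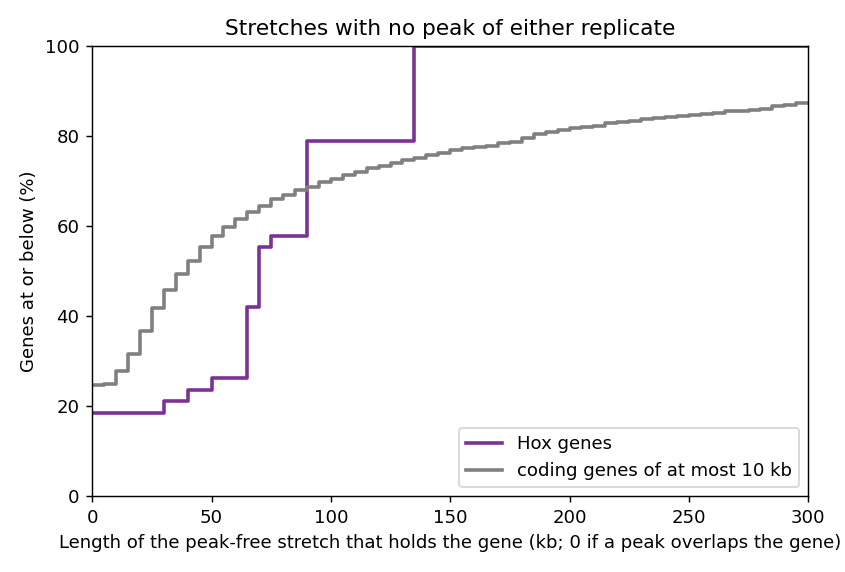
Share of genes (vertical axis, percent) whose peak-free stretch is at most the length on the horizontal axis (kb), for 38 Hox genes and 7278 coding genes of at most 10 kb; genes that overlap a peak count as 0. The Hox curve has steps because neighbouring genes share a stretch, it lies below the other curve up to 85 kb and reaches 100% at 135 kb.

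Homeobox genes of other clusters, with the same 100 kb margin, were set beside the Hox windows. The Dlx genes encode the DLX2 family and act in the jaw, and the Irx genes encode Iroquois factors. The window of *Dlx1* and *Dlx2* had 4 peaks in replicate 1 (ratio 1.58, interval 0.431 to 4.05) and 7 in replicate 2 (ratio 1.26, interval 0.507 to 2.60). That of *Dlx5* and *Dlx6* had 3 and 6 (ratios 1.19 and 1.08). For *Dlx3* and *Dlx4* the counts were 5 and 21, with ratios of 1.91 (interval 0.621 to 4.46) and 3.66 (interval 2.26 to 5.59). For *Irx1*, *Irx2* and *Irx4* they were 19 and 31, with ratios of 2.63 (interval 1.58 to 4.10) and 1.95 (interval 1.33 to 2.77), and for *Irx3*, *Irx5* and *Irx6* they were 9 and 28, with ratios of 1.27 (interval 0.580 to 2.41) and 1.80 (interval 1.19 to 2.60). The pooled ratio over the 4 Hox windows was below that of all 5 windows in replicate 1 and in replicate 2, but its interval met theirs in each comparison except that with *Dlx3* and *Dlx4* in replicate 2. Taken singly, HoxD in replicate 1 (1.75) stood above *Dlx1* with *Dlx2*, *Dlx5* with *Dlx6* and the *Irx3* group. HoxB in replicate 1 (1.39) stood above *Dlx5* with *Dlx6* and the *Irx3* group. In replicate 2, HoxC (1.12) stood above *Dlx5* with *Dlx6*. In all other single comparisons the Hox window was lower.

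**Figure D5:**
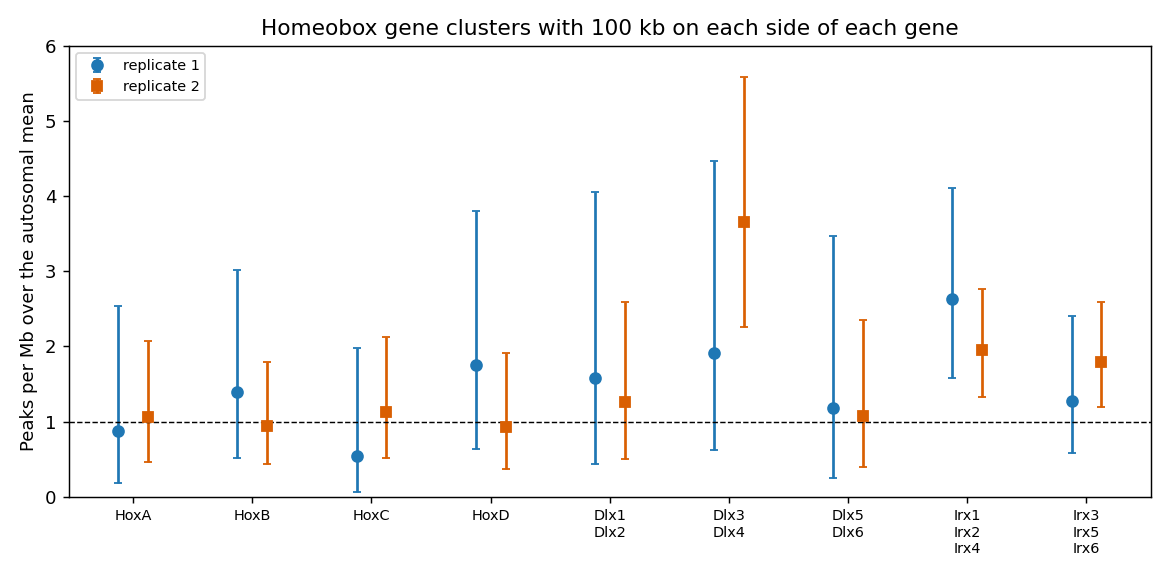
Peaks per Mb over the autosomal mean (vertical axis) in the 4 Hox windows and in windows around Dlx and Irx genes, for each replicate, with exact 95% Poisson intervals. The dashed line marks a ratio of 1. The Hox points lie between 0.548 and 1.75, and the highest point is Dlx3 with Dlx4 in replicate 2, at 3.66.

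Genes that work with the clusters were described from lists chosen for their roles. Of 11 genes in or beside the clusters, such as the lncRNA genes *Hotair* and *Hottip* and the microRNA genes *Mir10a* and *Mir196b*, none had a peak within 2 kb in replicate 1, 2 had one in replicate 2 (*Hottip* and *Mir615*) and none had a shared region. Of 15 Polycomb genes, which keep silent Hox genes repressed, 4 and 7 had a peak, with shared regions in *Phc2* and *Cbx7*. Of 6 trithorax genes, which keep active Hox genes on, 1 and 5 had a peak, with a shared region in *Kmt2a*. Of all coding genes, 35.6% and 56.0% had a peak and 16.8% a shared region. Of all annotated genes, lncRNA and microRNA genes among them, these shares were 23.9%, 40.0% and 11.2%, and the 11 genes in or beside the clusters are shorter still, with a median length of 0.11 kb, so none of these shares is matched to them in length.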

How the data were processed

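CUT&Tag peaks of DLX2 were listed for each of the 2 replicates on its own. The submitters' processing notes name Trim Galore 0.4.5, Bowtie 1.1.2, MACS2 2.2.7 and the build mm10, which is GRCm38, whereas the study's methods name bowtie2 and a later Trim Galore. The labels describe sonication and precipitation, and the methods describe transposase tagging. Both accounts name an Abcam Dlx2 antibody. The deposited score is the whole part of 10 times the −log10 q. The authors' fold for each peak is a ratio of summit fragments to local background. The deposited −log10 p and −log10 q are the peak caller's own, and the lists stop at a q of 0.1. The lists differ in length from the peak sets described in the study, and how those sets were derived is not given in the sources used here, so all values refer to the deposited lists.

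Fragments at each summit were recovered from the fold and the p, assuming that 1 was added to fragments and background and that p is a Poisson tail. Only whole numbers were tried, and for all peaks the best one gave the deposited −log10 p to within 0.001. These numbers are inferred. The autosomal mean was the number of peaks over 2404 Mb, from 3 Mb to the last gene or peak of each of the 19 autosomes, since no genome sequence was used. RefSeq GRCm38.p6 gave extents of 49939 genes, without strand or exons, of which 388 starting before 3 Mb were left out, and the promoter sequences. Counts carry exact 95% Poisson intervals, and the shares of Hox genes with a peak within 2 kb carry 95% Wilson intervals. There was no test between groups. Simulated peaks planted in the Hox windows (47 of 47) and simulated fragment numbers (300 of 300) were recovered. The simulations used the same windows and the same formula for fold and p, so they check the code and not these assumptions. The scripts used scipy 1.17.1, pandas 2.3.3, matplotlib 3.10.9 and numpy 2.4.6 under Python 3.11.15.

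The Hox genes, the gene lists and the comparisons were chosen with earlier results of these data known. The genes named are the Hox genes with a peak in the gene or within 2 kb, all peaks inside a cluster, the highest peak of each replicate in each window and all shared regions of the windows with their coding genes. Hoxd11, Hoxd10 and the peak-free stretches were named after their values were seen. The list of Hox cofactor genes is not reported here.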

Additional observations from a re-analysis of the deposited data

How the results depend on the processing

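Each list was refiltered and each window redrawn. Over the 4 Hox windows together, the mean ratio to the autosomal mean of 1.08 moved to 0.277 with a −log10 q of at least 5, 0.463 with a fold of at least 5, 0.780 with a margin of 20 kb, 1.22 with a margin of 500 kb, 0.907 against sequence within 100 kb of a coding gene and 0.929 for base pairs covered. Leaving out 1 replicate gave 1.01 to 1.14. The other alternatives, a −log10 q of at least 2, a margin of 50 kb, summits only and the own chromosome, gave 1.11, 1.05, 1.08 and 1.02, each within 1 SD of the replicates. That SD, 0.0942, is narrower than the counting error, with intervals of 0.667 to 1.83 in replicate 1 and 0.696 to 1.42 in replicate 2. The values 0.780, 0.907, 0.929 and 1.22 lie within both intervals, but these belong to the 100 kb windows as reported. No interval was computed for the other margins, so the shifts cannot be put down to counting error. With a margin of 500 kb the ratio was 1.43 in replicate 1 and 1.01 in replicate 2. The 0.277 is the mean of 0 and 0.554, from 0 peaks in replicate 1 and 2 in replicate 2. The shared ratio of 0.865 fell to 0 with a −log10 q of at least 5 and lay between 0.493 and 1.26 otherwise.

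The counts of Hox genes with a peak, 4 in replicate 1, 8 in replicate 2 and 1 for shared regions, all became 0 with a −log10 q of at least 5 and with a fold of at least 5. These filters shorten the whole lists: a −log10 q of at least 5 left a peak at 0.605%, 2.24% and 0.316% of coding genes of at most 10 kb, and a fold of at least 5 at 3.08%, 4.09% and 0.824%, so the counts of 0 among 38 genes are not a result about Hox genes. Within 10 kb the counts were 7, 14 and 1 (18.4%, 36.8% and 2.63%). The shares were 47.4%, 70.1% and 22.8% of coding genes and 28.6%, 52.1% and 10.7% of those of at most 10 kb. With a −log10 q of at least 2 the counts were 3 (7.89%), 4 (10.5%) and 1 (2.63%), against 7.43%, 20.2% and 2.51% of the short coding genes. At this filter only the replicate 2 share was below that of short genes, and no interval was computed for it. The density inside the clusters over that in the flanks, 0.702, was 0.747 with a −log10 q of at least 2, 0.412 with a fold of at least 5, 0.764 for base pairs covered and 0.687 to 0.717 with 1 replicate left out. It stayed below 1 in all of these settings. However, the 0.412 is the mean of 0.825 and 0, from windows that held 3 and 2 such peaks. The cause of these shifts was not tested.

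No paired analysis was possible because the samples form a single group, in which nothing is paired. The comparison with coding genes of at most 10 kb, the shares under each filter, the peak-free stretches and the motif TGATNNAT were chosen after seeing the data. Most peaks rest on fewer than 10 fragments, and the windows hold 17 and 33 peaks, and the intervals of the clusters overlap.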
